A study of Mus musculus with 24 samples.

Results

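The 10 genes described here are regulators of early adipocyte commitment: the zinc finger genes Zfp423, Zfp521 and Zfp467, the early B cell factor genes Ebf1, Ebf2 and Ebf3, the corepressor gene Tle3, the GATA factor genes Gata2 and Gata3, and the early growth response gene Egr2. They were taken by symbol from the 24825 genes listed in each library, and each was listed once. The choice was made with earlier results of these data known, so the counts of called genes below are descriptive. Expression was measured by RNA-seq in stromal vascular fraction (SVF) cells of inguinal white adipose tissue from Nfia flox/flox mice, in which exon 2 of Nfia is flanked by loxP sites. The SVF is the mixed non-adipocyte part of fat that holds adipocyte precursors, and all cells carried SV40 large T antigen, which immortalises them. The labels give 4 cell types. The ctrl cells carried no Cre (per the study's methods, an empty retroviral vector), the Cre cells carried Cre recombinase, the Cre + NFIA cells carried Cre and 3xFLAG-tagged full-length NFIA, and the Cre + NFIA Δpro#3 cells carried Cre and a tagged NFIA without the pro#3 segment of its C-terminal proline rich domain. Vectors were retroviral, and the labels give neither a clone nor an age of the mice. Libraries were made on day 0, before the differentiation cocktail was added, and on day 7 of differentiation into thermogenic adipocytes, with 3 per cell type and day and 24 in all.

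Adipocyte commitment is the step at which a mesenchymal precursor becomes a preadipocyte, before the master regulator Pparg drives lipid storage and adipocyte genes. ZFP423 marks and promotes preadipocyte commitment, and its paralog ZFP521 opposes it. EBF proteins bind DNA as dimers and act with PPARγ at adipocyte genes, with EBF2 known for brown and beige precursors, while GATA2 and GATA3 are expressed in precursors and repress Pparg. EGR2 (KROX20) is an immediate early factor of the adipogenic response, and TLE3 is a Groucho-family co-regulator that acts with PPARγ.

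In the RefSeq promoter table used here (GRCm38.p6), 8 of the 10 genes matched, with 15 windows of 300 bases, each from 250 bases before to 50 bases after a transcription start. The windows below belong to genes whose FPKM differed between cell types at day 7 in opposite directions, and they are shown for their base composition and for the letters that NFI factors and PPARγ are known to read. They are written 5′ to 3′ along the gene. Capitals mark TTGGCA, the NFI recognition core, or AGGTCA, the nuclear receptor recognition core, on either strand. Zfp423 has 2 windows, at chr8:87804390-87804689 and chr8:87959546-87959845 (both minus strand), Gata2 is shown at chr6:88198414-88198713 (plus strand), and Egr2 at chr10:67537316-67537615 (plus strand). For Gata2 and Egr2 the window shown is the one with a TTGGCA match, and their other windows held no match.
Zfp423, downstream start: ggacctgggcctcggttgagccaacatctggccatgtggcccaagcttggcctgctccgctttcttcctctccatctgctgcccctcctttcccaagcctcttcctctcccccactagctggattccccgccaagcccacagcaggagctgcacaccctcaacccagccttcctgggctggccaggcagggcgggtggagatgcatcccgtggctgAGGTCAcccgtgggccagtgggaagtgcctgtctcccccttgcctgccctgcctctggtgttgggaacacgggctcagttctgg
Zfp423, upstream start: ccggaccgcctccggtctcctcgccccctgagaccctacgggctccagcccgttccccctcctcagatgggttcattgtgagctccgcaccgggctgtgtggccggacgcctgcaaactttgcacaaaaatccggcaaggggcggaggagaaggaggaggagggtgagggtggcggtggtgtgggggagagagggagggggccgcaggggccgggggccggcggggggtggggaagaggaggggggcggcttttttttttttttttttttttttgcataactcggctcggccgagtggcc
Gata2: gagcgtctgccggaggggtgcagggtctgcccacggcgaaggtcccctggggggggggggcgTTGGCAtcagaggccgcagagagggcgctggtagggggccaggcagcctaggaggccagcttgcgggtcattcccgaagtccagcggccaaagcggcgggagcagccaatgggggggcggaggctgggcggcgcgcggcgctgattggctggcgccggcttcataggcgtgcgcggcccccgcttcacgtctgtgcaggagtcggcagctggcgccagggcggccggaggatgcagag
Egr2: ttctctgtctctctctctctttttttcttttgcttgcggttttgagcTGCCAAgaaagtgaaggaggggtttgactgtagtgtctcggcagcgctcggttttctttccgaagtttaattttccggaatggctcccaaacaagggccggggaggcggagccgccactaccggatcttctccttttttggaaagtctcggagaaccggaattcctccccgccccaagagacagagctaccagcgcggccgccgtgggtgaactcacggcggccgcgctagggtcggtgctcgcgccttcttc
TTGGCA was found in 2 of the 15 windows, those of Gata2 and Egr2 above, against 14.1% of all 32851 RefSeq windows. AGGTCA was found in 1, at the downstream start of Zfp423, against 16.3% of all windows. The full palindrome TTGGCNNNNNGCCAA was in none of the 15 windows and in 0.0365% of all. Both strands were searched for these 3 motifs, which do not overlap each other except that the palindrome can hold TTGGCA. The 4 windows shown hold between 56.7% and 73.7% G and C. A match describes letters only, and these windows show nothing about binding.

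FPKM is the number of fragments per kilobase of gene per 1000000 counted fragments, so it can be compared between genes. Averaged over the 24 libraries, Tle3 (26.6 FPKM) and Ebf1 (25.4 FPKM) had the highest levels, at percentiles 74.9 and 73.9 among the 12640 genes tested. Zfp521 followed at 8.20 FPKM and Gata2 at 6.02 FPKM. Egr2 (4.98 FPKM), Ebf2 (4.77 FPKM), Zfp423 (4.40 FPKM) and Ebf3 (4.36 FPKM) lay close together. Zfp467 (0.926 FPKM) and Gata3 (0.778 FPKM) were lowest and rested on 9 to 105 and 11 to 61 reads per library, against 31 to 2161 reads for the other 8 genes. All 10 genes passed the filter of 1 FPKM in at least 3 libraries, but Zfp467 reached 1 FPKM in 8 libraries and Gata3 in 6, mainly those of the groups where they were high, so that these genes entered the test through those groups. Their calls below, and their part in the counts of called genes, are therefore not independent of the filter. None of their calls was lost when the filter was left out.

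**Figure D1:**
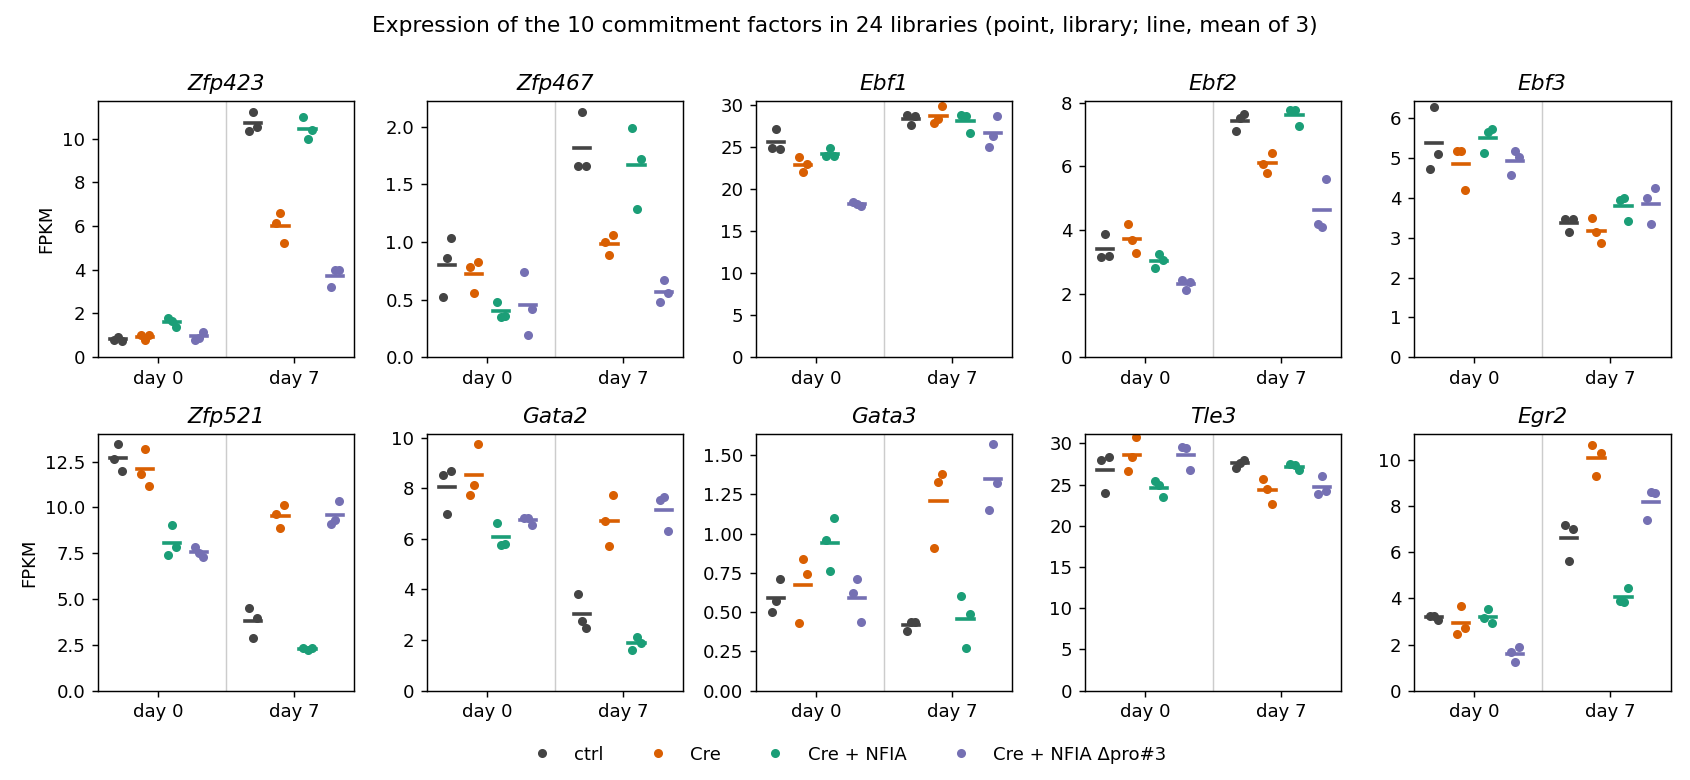
FPKM of each gene (vertical axis, from 0) in the 24 libraries, with 4 cell types at day 0 on the left and day 7 on the right of each panel. Points are libraries and lines are means of 3. At day 7 Zfp423 and Ebf2 were highest in ctrl and Cre + NFIA, whereas Zfp521, Gata2 and Egr2 were highest in Cre and Cre + NFIA Δpro#3.

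The libraries held between 7.73 and 14.62 M reads (M, 1000000). Nfia itself did not check the Cre label. Its gene-level FPKM was 6.23 to 6.75 in ctrl and 5.34 to 6.81 in the libraries labelled Cre at day 0, and 9.15 to 9.81 and 9.49 to 10.7 at day 7, and FPKM of a whole gene does not show which exons were read. It was 59.7 to 111 FPKM in the cells with an NFIA vector. The study itself reported the deletion by other assays. Genomic PCR showed efficient recombination, and NFIA was nearly lost in Cre cells by RT-qPCR and by Western blot. Pparg, the readout of differentiation, was 52.0 ± 2.5 FPKM (SD, n = 3) in ctrl, 22.4 ± 5.55 in Cre, 60.0 ± 3.34 in Cre + NFIA and 9.02 ± 2.52 in Cre + NFIA Δpro#3 at day 7. The summed FPKM of 6 adipocyte markers (Adipoq, Plin1, Cidec, Fabp4, Lep and Cd36) was 20100 to 23400, 3800 to 8440, 18900 to 19000 and 629 to 1770 in the same order, from 10.7 to 34.0 over the groups at day 0. Lep never passed 0.322 FPKM. The summed FPKM of 10 stromal precursor markers was lowest in the cell types with the high adipocyte sums at day 7, with 1320 to 1450 in ctrl, 2360 to 2660 in Cre, 1040 to 1160 in Cre + NFIA and 2570 to 3000 in Cre + NFIA Δpro#3. Differences between cell types at day 7 in the genes below therefore moved together with adipocyte and precursor markers, and the part of this in each result was not tested. In such bulk RNA fewer cells of a type and less RNA per cell cannot be told apart.

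Other cell types also express some of these genes, such as mast cells and endothelium for Gata2, Schwann cells for Egr2 and lymphocytes for Gata3. The markers listed for them were partly at 0 and partly not. Adgre1, Cpa3, Mcpt4, Fcer1a, Tie1 and Myod1 had 0 reads in every library, and Ptprc, Cd3e, Cd4 and Il7r had at most 1 read. Sox10 had at most 2 reads and Cdh5 at most 3 reads. Summed FPKM was 3.84 to 11.3 for 8 leukocyte markers (2 passed the filter, Cd68 and Csf1r), 3.28 to 9.16 for 6 mast cell and megakaryocyte markers (2 passed, Kit and Itga2b) and 1.55 to 10.2 for 6 endothelial markers (2 passed, Kdr and Tek). It was 85.2 to 158 for 6 Schwann cell markers, almost all of it Pmp22, and at most 0.213 for 6 skeletal muscle markers, none of which passed. Markers that passed reached up to 8.54 FPKM for Itga2b, 8.23 for Cd68, 7.34 for Tek, 3.86 for Kit, 3.73 for Kdr and 3.64 for Csf1r, within the range of Gata2 (1.62 to 9.74 FPKM). They also moved with cell type at day 7. Kdr (0.42), Tek (0.45), Itga2b (0.81) and Csf1r (0.45) were called higher in Cre than in ctrl, Kit (1.44) and the Schwann markers Pmp22 (0.83), S100b (0.63) and Mbp (0.42) higher in Cre + NFIA than in Cre, and Itga2b (-1.08), Csf1r (-0.76) and Tek (-0.74) lower. Smooth muscle markers moved too, with sums of 228 to 293 in ctrl, 274 to 337 in Cre, 127 to 153 in Cre + NFIA and 370 to 456 in Cre + NFIA Δpro#3. The part of these cell types in the results was not tested.

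Genes were tested with limma on log2(FPKM + 1), with p-values adjusted over the 12640 genes by the Benjamini-Hochberg method, and called stands for an adjusted p under 0.05. Differences are given on this log2 scale with the standard error (SE). The scale makes the differences of low genes smaller. The labels do not say that replicate libraries came from separate cultures, so p-values measure the spread between these libraries only.

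Between day 0 and day 7 Zfp423 rose in all 4 cell types. In ctrl it was 0.80, 0.93 and 0.76 FPKM before differentiation, against 10.37, 11.22 and 10.54 FPKM at day 7, which is a 12.9-fold ratio of means. In Cre it went from 1.02, 0.80 and 1.00 to 6.14, 6.61 and 5.24 FPKM. The day 0 and day 7 libraries did not overlap in either. In Cre + NFIA Zfp423 went from 1.78, 1.65 and 1.36 to 11, 9.97 and 10.4 FPKM, and in Cre + NFIA Δpro#3 from 0.80, 0.90 and 1.16 to 3.19, 3.97 and 3.98 FPKM. The rise on the log2 scale was 2.68 in ctrl (SE 0.09, adjusted p = 1.35e-15), 1.85 in Cre (SE 0.09, adjusted p = 2.22e-12), 2.14 in Cre + NFIA (SE 0.09, adjusted p = 2.87e-14) and 1.27 in Cre + NFIA Δpro#3 (SE 0.09, adjusted p = 9.91e-10). Zfp423 lies on chromosome 8 (chr8:90185709-90483494, minus strand, NCBIM37).

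Zfp521, on chromosome 18, moved the other way, and its course separated the cell types. It fell from 12.63, 13.44 and 12 FPKM to 4.53, 2.88 and 3.99 FPKM in ctrl (log2 difference -1.53, SE 0.10, adjusted p = 1.55e-11), a ratio of day 0 to day 7 means of 3.34. In Cre + NFIA it fell from 7.40, 9.02 and 7.81 to 2.32, 2.22 and 2.35 FPKM (-1.46, SE 0.10, adjusted p = 3.12e-11). In these cell types every day 7 library lay under every day 0 library. In Cre it was 11.81, 13.2 and 11.19 FPKM at day 0 and still 9.61, 8.88 and 10.14 FPKM thereafter (-0.31, SE 0.10, adjusted p = 0.0135). In Cre + NFIA Δpro#3 it rose from 7.84, 7.50 and 7.28 to 9.07, 9.29 and 10.33 FPKM (0.31, SE 0.10, adjusted p = 0.0184). The calls in Cre and in Cre + NFIA Δpro#3 were lost without 1 library, for Cre without replicate 2 of day 0 or of day 7 (adjusted p 0.0612 to 0.072) and for Cre + NFIA Δpro#3 without replicate 3 of day 0 or of day 7 (0.061 to 0.0858), and under quantile normalization for Cre + NFIA Δpro#3 (0.0739).

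Gata2 (chr6:88143885-88157024, plus strand), a repressor of Pparg in precursors, followed Zfp521. In ctrl it was 8.52, 6.99 and 8.68 FPKM at day 0, against 3.84, 2.76 and 2.47 FPKM a week later (log2 difference -1.18, SE 0.12, adjusted p = 2.15e-08). In Cre + NFIA it went from 6.63, 5.75 and 5.79 to 1.62, 2.11 and 1.88 FPKM (-1.30, SE 0.12, adjusted p = 4.82e-09). Both falls separated the days without overlap. In Cre, Gata2 was 7.75, 8.14 and 9.74 FPKM and then 6.71, 5.70 and 7.75 FPKM, with overlapping libraries (-0.31, SE 0.12, adjusted p = 0.0392). That call was lost without any of 4 libraries, replicates 2 and 3 of day 0 and 1 and 2 of day 7 (adjusted p 0.0522 to 0.195), and also with a pseudocount of 0.1 (0.0542), without the filter (0.0625) or with only the compared groups in the model (0.0928). In Cre + NFIA Δpro#3 it was 6.84, 6.82 and 6.54 FPKM and then 7.54, 7.64 and 6.30 FPKM, which was not called (adjusted p = 0.665, 95% interval -0.18 to 0.33). Gata3 (chr2:9778705-9811661, minus strand), its relative with the same known role, was low throughout. It fell in Cre + NFIA from 0.96, 0.76 and 1.10 to 0.60, 0.27 and 0.49 FPKM (-0.42, SE 0.12, adjusted p = 0.0051), and rose in Cre from 0.43, 0.84 and 0.74 to 0.91, 1.33 and 1.38 FPKM (0.40, SE 0.12, adjusted p = 0.0101) and in Cre + NFIA Δpro#3 from 0.62, 0.71 and 0.44 to 1.15, 1.57 and 1.32 FPKM (0.56, SE 0.12, adjusted p = 0.00102). The call in Cre was lost without replicate 1 of day 0 (adjusted p = 0.0712), with quantile normalization (0.378) and with only the compared groups in the model (0.0604). In ctrl Gata3 was 0.50, 0.57 and 0.71 FPKM and later 0.38, 0.44 and 0.44 FPKM, which was not called (adjusted p = 0.245), though it was with quantile normalization (log2 difference -0.39, adjusted p = 0.00898).

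Among the EBF genes, Ebf2 (chr14:67852129-68048604, plus strand) rose in all 4 cell types. Its means went from 3.39 to 7.42 FPKM in ctrl (log2 difference 0.94, SE 0.09, adjusted p = 1.53e-08) and from 3.03 to 7.60 FPKM in Cre + NFIA (1.09, SE 0.09, adjusted p = 1.5e-09). They went from 3.71 to 6.10 FPKM in Cre (0.60, SE 0.09, adjusted p = 2.19e-05) and from 2.30 to 4.62 FPKM in Cre + NFIA Δpro#3 (0.76, SE 0.09, adjusted p = 1.63e-06). Ebf1 (chr11:44430819-44821593, plus strand), the most abundant of the 3 genes, rose less, with log2 differences of 0.14 in ctrl (adjusted p = 0.0188), 0.31 in Cre, 0.21 in Cre + NFIA and 0.53 in Cre + NFIA Δpro#3 (adjusted p = 6.6e-08). The ctrl call was lost without replicate 1 or 3 of either day (adjusted p 0.0524 to 0.0713), with quantile normalization (0.0965) and with only the compared groups in the model (0.0776). Ebf3 (chr7:144385356-144506128, minus strand) fell in all 4, with means from 5.37 to 3.36 FPKM in ctrl (-0.54, SE 0.10, adjusted p = 4.93e-05) and from 4.92 to 3.86 FPKM in Cre + NFIA Δpro#3 (-0.29, SE 0.10, adjusted p = 0.0231). The second of these calls was lost without replicate 2 or 3 of day 0 or replicate 2 of day 7 (adjusted p 0.0662 to 0.123) and with only the compared groups in the model (0.0506). As a share of the summed FPKM of Ebf1, Ebf2 and Ebf3, Ebf2 made up 9.83% ± 0.45 (SD, n = 3) at day 0 and 18.9% ± 0.83 at day 7 in ctrl, 9.24% ± 0.40 and 19.2% ± 0.12 in Cre + NFIA, 11.7% ± 0.95 and 16.1% ± 0.45 in Cre, and 9.05% ± 0.65 and 13.1% ± 1.3 in Cre + NFIA Δpro#3. Ebf1 remained between 71.2% and 76.0% of the sum in every group mean. The day 7 libraries of ctrl and Cre + NFIA held the larger Ebf2 shares.

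Egr2 (chr10:66998223-67004936, plus strand) rose in all 4 cell types, with the largest log2 differences in Cre + NFIA Δpro#3 and Cre. In Cre + NFIA Δpro#3 it was 1.68, 1.26 and 1.88 FPKM, and 7.40, 8.62 and 8.56 FPKM by day 7 (log2 difference 1.82, SE 0.11, adjusted p = 4.76e-11), and in Cre 2.46, 3.66 and 2.70 FPKM and then 10.66, 9.29 and 10.32 FPKM (1.5, SE 0.11, adjusted p = 5.54e-10). In ctrl it went from 3.23, 3.22 and 3.07 to 7.20, 5.62 and 7.03 FPKM (0.86, SE 0.11, adjusted p = 6.47e-07). Every day 7 library of these cell types lay above every day 0 library. In Cre + NFIA it was 3.13, 3.54 and 2.93 FPKM and then 3.89, 3.84 and 4.45 FPKM (0.27, SE 0.11, adjusted p = 0.0366), a call lost without replicate 1 or 3 of day 0 or replicate 3 of day 7 (adjusted p 0.0798 to 0.137), without the filter (0.0567) and with quantile normalization (0.0725). Zfp467 (chr6:48377696-48395824, minus strand), known to favour adipocyte over osteoblast formation, rose in ctrl from 0.52, 0.86 and 1.03 to 1.66, 2.13 and 1.66 FPKM (0.65, SE 0.14, adjusted p = 0.000246) and in Cre + NFIA from 0.48, 0.35 and 0.36 to 1.99, 1.29 and 1.72 FPKM (0.93, SE 0.14, adjusted p = 3.74e-06). It was not called in Cre (adjusted p = 0.218) or in Cre + NFIA Δpro#3 (adjusted p = 0.462). Tle3 (chr9:61220190-61266297, plus strand) moved least, between 22.7 and 30.7 FPKM over the 24 libraries. It fell from a mean of 28.6 to 24.3 FPKM in Cre (-0.22, SE 0.07, adjusted p = 0.00676) and from 28.6 to 24.7 FPKM in Cre + NFIA Δpro#3 (-0.20, SE 0.07, adjusted p = 0.0164), the second lost without replicate 1 or 2 of day 0 or replicate 1 or 3 of day 7 (adjusted p 0.0553 to 0.0664).

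**Figure D2:**
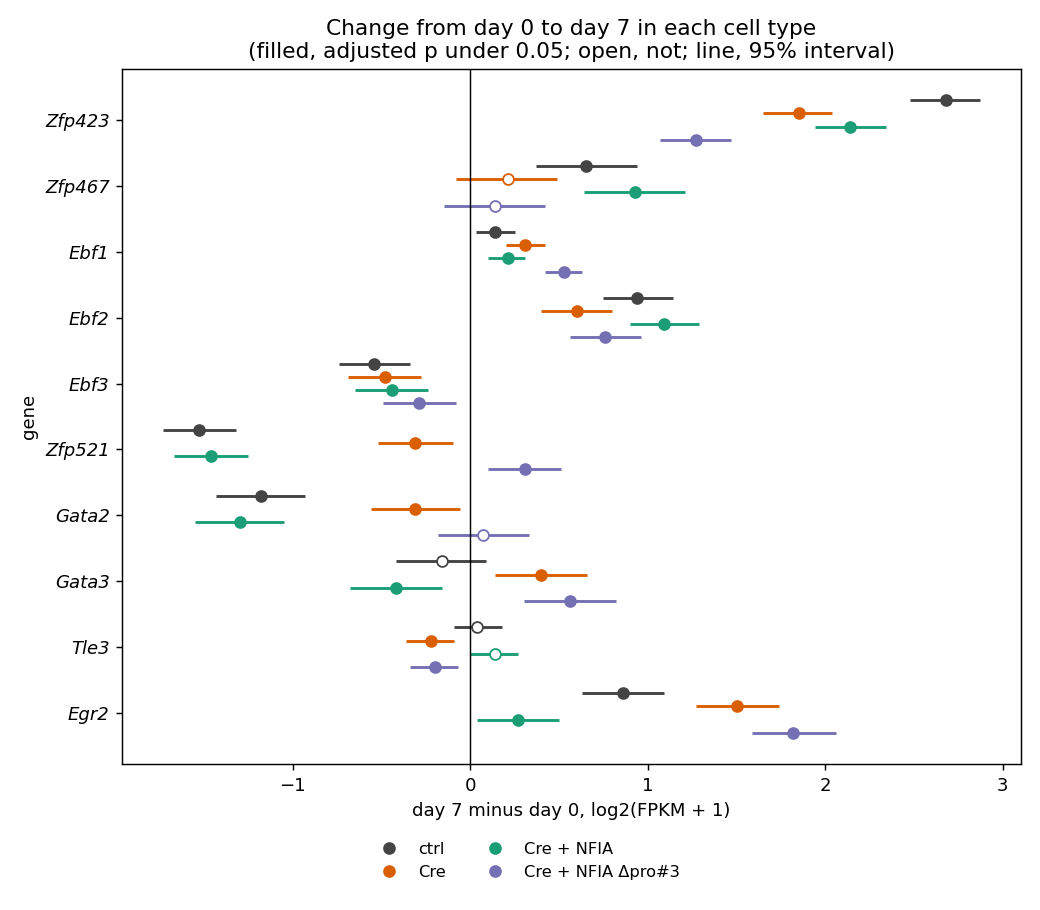
Change of each gene from day 0 to day 7 in log2(FPKM + 1) (horizontal axis), by cell type (colour), with 95% intervals as lines and filled points for adjusted p under 0.05. Zfp423 rose in all 4 cell types (1.27 to 2.68), whereas Zfp521 fell by 1.53 in ctrl and rose by 0.31 in Cre + NFIA Δpro#3.

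In counts, 8 of the 10 genes were called between the days in ctrl (5 higher, 3 lower), where 71.0% of all genes tested were called, 32.9% higher and 38.1% lower. In Cre 9 were called (5 higher, 4 lower) against 51.7% of all genes, 30.0% higher and 21.6% lower. In Cre + NFIA 9 were called (5 higher, 4 lower) against 70.1%, with 31.8% higher and 38.3% lower. In Cre + NFIA Δpro#3 8 were called (6 higher, 2 lower) against 41.5%, with 24.5% higher and 17.0% lower. Median log2 differences over the 10 genes were 0.09, 0.26, 0.17 and 0.42 in that order, against -0.05, 0.05, -0.05 and 0.05 over all genes tested. Where a call also had to be at least 3-fold on the log2(FPKM + 1) scale, Zfp423 passed in ctrl (8.50% of all genes passed), in Cre (2.73%) and in Cre + NFIA (9.08%), and Egr2 in Cre + NFIA Δpro#3 (1.46%). The added 1 FPKM shrinks this fold, and by the ratio of mean FPKM further called genes passed 3-fold. These were Zfp521 in ctrl (3.34) and in Cre + NFIA (3.52), Gata2 (3.24) and Zfp467 (4.22) in Cre + NFIA, Egr2 in Cre (3.43) and Zfp423 in Cre + NFIA Δpro#3 (3.9). The share of all genes past 3-fold by this ratio was not computed, here or in the comparisons below. The shares given are for the log2(FPKM + 1) scale only.

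The comparison of Cre with ctrl at day 7 asks what differs in cells given Cre. Zfp423, Zfp467, Ebf2 and Tle3 were lower and Zfp521, Gata2, Gata3 and Egr2 higher in Cre, so 8 of the 10 genes were called, where 58.8% of all genes tested were called, 36.1% higher and 22.7% lower. Most genes of these cells differed too, and the median log2 difference was -0.03 over the 10 genes and 0.09 over all genes. Zfp521 was higher in Cre by 1.15 (SE 0.11, adjusted p = 5.45e-06), a 2.51-fold ratio of means, and Gata2 by 0.95 (SE 0.14, adjusted p = 9.4e-05), a 2.22-fold ratio. Gata3 was higher by 0.63 (SE 0.13, adjusted p = 0.00105) and Egr2 by 0.55 (SE 0.10, adjusted p = 0.000419). Zfp423 was lower by 0.75 (log2 difference -0.75, SE 0.09, adjusted p = 2.41e-05) and Zfp467 by 0.50 (-0.50, SE 0.12, adjusted p = 0.00297). For each of these 6 genes the 3 Cre libraries lay wholly above or wholly below the 3 ctrl libraries. The share of all genes separated in this way was not computed, so this describes the libraries and sets these genes apart from no others. The differences of Ebf2 (-0.25, SE 0.09, adjusted p = 0.0408) and Tle3 (-0.18, SE 0.05, adjusted p = 0.0141) were small. The Ebf2 call was lost without any ctrl replicate or without Cre replicate 1 or 2 (adjusted p 0.0522 to 0.111) and without the filter (0.0648), and the Tle3 call without Cre replicate 3 (0.0624). Ebf1 was 28.9, 27.6 and 28.8 FPKM in ctrl against 27.9, 28.3 and 30.0 FPKM in Cre, and Ebf3 3.47, 3.15 and 3.47 against 3.5, 3.15 and 2.87 FPKM. Both overlapped and neither was called, with 95% intervals of -0.11 to 0.14 and -0.27 to 0.14.

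The comparison of Cre + NFIA with Cre at day 7 asks what full-length NFIA changes in cells with Cre, and it uses the same Cre libraries. Again 8 genes were called, 4 higher (Zfp423, Zfp467, Ebf2 and Tle3) and 4 lower (Zfp521, Gata2, Gata3 and Egr2), against 63.0% of all genes, 27.0% higher and 35.9% lower, with medians of 0.06 and -0.06. Zfp521 was lowest relative to Cre, with a log2 difference of -1.68 (SE 0.11, adjusted p = 1.59e-07) and a 4.16-fold higher mean in Cre. On the log2(FPKM + 1) scale Zfp521 alone of the 10 genes was called and at least 3-fold different, as 3.63% of all genes were, but by the ratio of mean FPKM Gata2 also passed 3-fold (3.6-fold higher in Cre). Gata2 differed by -1.42 (SE 0.14, adjusted p = 2.54e-06), Egr2 by -1.13 (SE 0.10, adjusted p = 9.93e-07) and Gata3 by -0.60 (SE 0.13, adjusted p = 0.00126). Zfp423 was higher by 0.72 (SE 0.09, adjusted p = 2.37e-05) and Zfp467 by 0.42 (SE 0.12, adjusted p = 0.00809). Ebf2 (0.28, SE 0.09, adjusted p = 0.0224) and Tle3 (0.16, SE 0.05, adjusted p = 0.0235) were higher by less. The Ebf2 call was lost without replicate 1 or 2 of Cre or of Cre + NFIA (adjusted p 0.0531 to 0.0689), and the Tle3 call without Cre replicate 3 or Cre + NFIA replicate 1 or 2 (0.0594 to 0.101). Ebf1 was 28.9, 28.8 and 26.8 FPKM and Ebf3 3.96, 4.01 and 3.42 FPKM in Cre + NFIA, and neither was called, though Ebf3 was called after median-of-ratios scaling (0.29, adjusted p = 0.0127) and quantile normalization (0.31, adjusted p = 0.00788).

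The comparison of Cre + NFIA Δpro#3 with Cre at day 7 asks the same of NFIA without the pro#3 segment. Here 2 of the 10 genes were called, both lower, against 17.7% of all genes and 10.0% lower (medians -0.05 and 0.02). Zfp423, at 3.19, 3.97 and 3.98 FPKM against 6.14, 6.61 and 5.24 FPKM in Cre, was lower by 0.57 (-0.57, SE 0.09, adjusted p = 0.00145), and Ebf2, at 4.17, 4.08 and 5.61 FPKM against 6.08, 5.79 and 6.43 FPKM, by 0.35 (-0.35, SE 0.09, adjusted p = 0.025). The Ebf2 call was lost without replicate 1 or 3 of Cre or replicate 1 or 2 of Cre + NFIA Δpro#3 (adjusted p 0.0638 to 0.104), which left 1 gene called. Zfp521 was 9.07, 9.29 and 10.33 FPKM and overlapped Cre, with a 95% interval of the difference of -0.24 to 0.25 (adjusted p = 0.995). Gata2 (-0.21 to 0.38, adjusted p = 0.727), Gata3 (-0.18 to 0.37, adjusted p = 0.667) and Tle3 (-0.10 to 0.14, adjusted p = 0.831) were not called either. Zfp467, at 0.48, 0.67 and 0.56 FPKM, lay under all Cre libraries (1.00, 0.89 and 1.06 FPKM) without a call (adjusted p = 0.0714), as did Egr2 (adjusted p = 0.0742). Both were called by limma voom on the recovered reads (adjusted p = 0.0495 and 0.0478), which gave 4 genes, and Zfp467 also with a pseudocount of 0.1 (0.0332). Ebf1 and Ebf3 were not called, though after quantile normalization Ebf3 was called higher (log2 difference 0.27, adjusted p = 0.0462), which gave 3 genes.

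**Figure D3:**
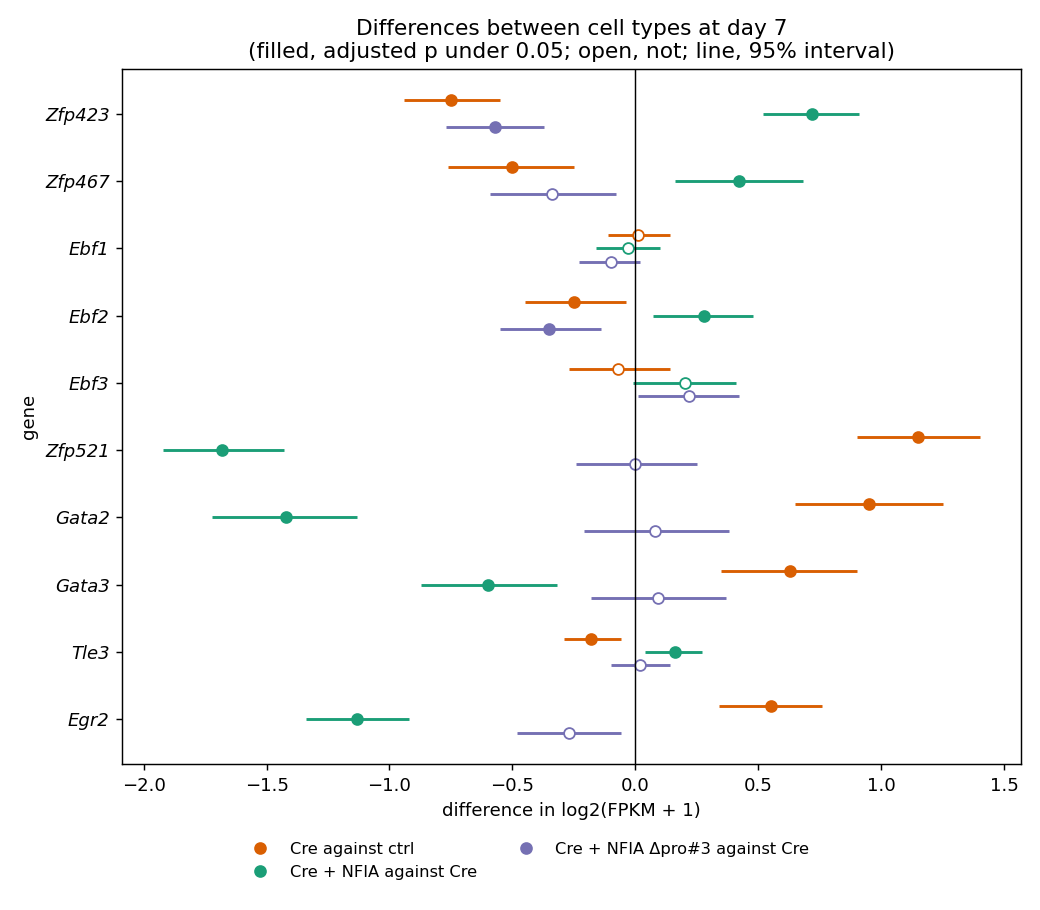
Differences between cell types at day 7 in log2(FPKM + 1) (horizontal axis) for the 10 genes, with 95% intervals as lines and filled points for adjusted p under 0.05. Zfp521 was 1.15 higher in Cre than in ctrl and 1.68 lower in Cre + NFIA than in Cre, and the interval for Cre + NFIA Δpro#3 against Cre ran from -0.24 to 0.25.

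Set against Cre + NFIA directly, Cre + NFIA Δpro#3 differed at day 7 in 8 of the 10 genes, 4 higher and 4 lower, where 69.2% of all genes were called, 40.4% higher and 28.9% lower (medians -0.03 and 0.10). Zfp521 was higher by 1.68 (SE 0.11, adjusted p = 8.22e-08), which is past 3-fold on the log2(FPKM + 1) scale, as it was for 6.92% of all genes, and Gata2 by 1.51 (SE 0.14, adjusted p = 9.65e-07), past 3-fold only in the ratio of means (3.83), with Egr2 at 0.86 (SE 0.10, adjusted p = 6.28e-06) and Gata3 at 0.69 (SE 0.13, adjusted p = 0.000356). Zfp423 was lower by 1.28 (-1.28, SE 0.09, adjusted p = 1.13e-07), Zfp467 by 0.76 (-0.76, SE 0.12, adjusted p = 0.000107) and Ebf2 by 0.62 (-0.62, SE 0.09, adjusted p = 8.17e-05). None of these 7 genes had overlapping libraries, but the share of all genes without overlap was not computed. Tle3 (-0.13, SE 0.05, adjusted p = 0.041) lost its call without any Cre + NFIA replicate or without replicate 1 or 3 of Cre + NFIA Δpro#3 (adjusted p 0.062 to 0.131) and with all 24 libraries in the model (0.0721). Ebf1 was not called (adjusted p = 0.277), though it was after median-of-ratios scaling (-0.19, adjusted p = 0.00572).

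Cre + NFIA and ctrl differed at day 7 in 3 genes, all lower in Cre + NFIA, against 18.0% of all genes and 9.15% lower (medians -0.03 and 0.02). These were Zfp521 (-0.53, SE 0.11, adjusted p = 0.00775), Egr2 (-0.58, SE 0.10, adjusted p = 0.00163) and Gata2 (-0.48, SE 0.14, adjusted p = 0.0314). The Gata2 call was lost without ctrl replicate 1 or Cre + NFIA replicate 1 or 3 (adjusted p 0.0763 to 0.114), with a pseudocount of 5 (0.0691) and without the filter (0.0652). Zfp423 overlapped between these groups, with an interval of -0.23 to 0.16 (adjusted p = 0.851), and Ebf2 likewise (-0.17 to 0.24, adjusted p = 0.861). For Zfp423 the order at day 7 was thus ctrl and Cre + NFIA, which did not differ beyond their spread, then Cre, then Cre + NFIA Δpro#3. For Zfp521 it was Cre + NFIA Δpro#3 and Cre, which did not differ beyond their spread, then ctrl, then Cre + NFIA.

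Cre + NFIA Δpro#3 against ctrl was added after the data had been seen. At day 7 it gave 8 called genes, 4 higher (Zfp521, Gata2, Gata3 and Egr2) and 4 lower (Zfp423, Zfp467, Ebf2 and Tle3), against 66.9% of all genes, 41.4% higher and 25.4% lower (medians 0.03 and 0.13). Zfp423 was lower by 1.32 (-1.32, SE 0.09, adjusted p = 1.55e-07) and Zfp521 higher by 1.15 (SE 0.11, adjusted p = 2.46e-06). Egr2 was higher by 0.28 (SE 0.10, adjusted p = 0.0238), a call lost after median-of-ratios scaling (0.201) and quantile normalization (0.147) and without ctrl replicate 2 or replicate 2 or 3 of Cre + NFIA Δpro#3 (adjusted p 0.072 to 0.104), and Tle3 (-0.15, SE 0.05, adjusted p = 0.0231) lost its call without ctrl replicate 2 or 3 or replicate 1 or 3 of Cre + NFIA Δpro#3 (0.0505 to 0.0824). Median-of-ratios scaling moved the median difference of all genes by -0.13 here, by -0.11 for Cre against ctrl and by 0.09 for Cre + NFIA against Cre at day 7, and the calls of Zfp423, Zfp467, Ebf2, Zfp521, Gata2 and Gata3 in these 3 comparisons held after it. Under that scaling 46.3% of all calls for Cre against ctrl were higher, against 61.4% before, 53.7% against 43.0% for Cre + NFIA against Cre, and 48.6% against 62.0% for Cre + NFIA Δpro#3 against ctrl.

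Before differentiation the cells with an NFIA vector already differed from Cre and ctrl in some of the genes. Between Cre and ctrl 0 of the 10 genes were called by limma (3.33% of all genes) or by limma voom, and 1, Ebf1, had an unadjusted p under 0.05 in each. Cre + NFIA differed from Cre in 3 genes, 1 higher and 2 lower, against 27.6% of all genes, 14.7% higher and 12.9% lower (medians -0.06 and 0.02). Zfp423 was higher by 0.42 (SE 0.09, adjusted p = 0.00671), at 1.78, 1.65 and 1.36 FPKM against 1.02, 0.80 and 1.00 FPKM, and Zfp521 (-0.53, SE 0.08, adjusted p = 0.000763) and Gata2 (-0.43, SE 0.10, adjusted p = 0.00753) were lower. The same 3 genes were called in the same directions against ctrl, where 33.1% of all genes were called, 18.8% higher and 14.3% lower (Zfp423 0.50, adjusted p = 0.00203, Zfp521 -0.60, adjusted p = 0.000296, Gata2 -0.36, adjusted p = 0.017). That comparison shares the Cre + NFIA libraries with the one before. Against ctrl the Gata2 call was lost without replicate 1 or 3 of ctrl or replicate 2 or 3 of Cre + NFIA (adjusted p 0.0563 to 0.0599).

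Cre + NFIA Δpro#3 was lower than Cre at day 0 in 4 genes, against 18.3% of all genes and 9.02% lower, with none higher (medians -0.28 and 0.01). Ebf1 was 18.5, 18.3 and 18.0 FPKM against 23.8, 22.0 and 23.0 FPKM in Cre (-0.32, SE 0.05, adjusted p = 0.00123), and Ebf2 2.41, 2.12 and 2.37 FPKM against 4.17, 3.69 and 3.26 FPKM (-0.51, SE 0.09, adjusted p = 0.00432). Egr2 was 1.68, 1.26 and 1.88 FPKM against 2.46, 3.66 and 2.70 FPKM (-0.59, SE 0.12, adjusted p = 0.00755), and Zfp521 differed by -0.61 (SE 0.08, adjusted p = 0.000641). In each of the 4 the libraries of the cell types did not overlap, though the share of all genes without overlap was not computed. Gata2, at 6.84, 6.82 and 6.54 FPKM, also lay under all Cre libraries (7.75, 8.14 and 9.74 FPKM) but was not called. Limma voom on the recovered reads called it lower (log2 difference -0.33, adjusted p = 0.0473), which gave 5 genes. Against Cre + NFIA 3 genes were lower, with 10.1% of all genes called and 5.59% lower, namely Ebf1 (-0.39, SE 0.05, adjusted p = 0.000301), Egr2 (-0.69, SE 0.12, adjusted p = 0.00405) and Zfp423 (-0.41, SE 0.09, adjusted p = 0.0165). The Zfp423 call was lost without replicate 1 or 2 of either cell type (adjusted p 0.0591 to 0.0758) and with quantile normalization (0.0525). Against ctrl, added after the data had been seen, the 4 genes lower than in Cre were lower too (30.4% of all genes called, 13.2% lower), with Ebf1 at -0.47 (SE 0.05, adjusted p = 6.16e-05) and Ebf2 at -0.41 (SE 0.09, adjusted p = 0.00829). At day 0 the summed FPKM of Ebf1, Ebf2 and Ebf3 was 25.5 ± 0.092 (SD, n = 3) in Cre + NFIA Δpro#3, against 31.5 ± 1.4 in Cre, 32.8 ± 0.96 in Cre + NFIA and 34.4 ± 2.5 in ctrl.

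Whether a difference between cell types was itself different at day 7 and day 0 was tested as an interaction. For Cre against ctrl 7 genes were called (4 higher, 3 lower), against 49.2% of all genes, 29.7% higher and 19.5% lower. With only the compared groups in the model 5 were called, as Tle3 (adjusted p = 0.0672) and Ebf2 (0.0542) were lost, and without the filter 6, as Ebf2 (0.059) was lost. Zfp521 (1.22, SE 0.14, adjusted p = 8.06e-07), Gata2 (0.87, SE 0.17, adjusted p = 0.000289) and Zfp423 (-0.83, SE 0.13, adjusted p = 3.55e-05) had the largest interactions. For Cre + NFIA against Cre 7 genes were called (3 higher, 4 lower), against 48.9% of all genes, 18.8% higher and 30.1% lower, with Egr2 at -1.23 (SE 0.16, adjusted p = 1.9e-06), Zfp521 at -1.15 (SE 0.14, adjusted p = 1.09e-06) and Gata2 at -0.99 (SE 0.17, adjusted p = 6.61e-05). Zfp423 was not among them (adjusted p = 0.074). It was called with a pseudocount of 5 and after both scalings (adjusted p 0.000257 to 0.0176), whereas limma voom on the recovered reads gave a difference of 0.07 (adjusted p = 0.818). For Cre + NFIA Δpro#3 against Cre 3 genes were called (2 higher, 1 lower), against 18.2% of all genes, 7.79% higher and 10.4% lower. These were Zfp521 (0.61, SE 0.14, adjusted p = 0.00446), Zfp423 (-0.57, SE 0.13, adjusted p = 0.005) and Ebf1 (0.21, SE 0.07, adjusted p = 0.0499). By limma voom only Zfp521 remained (adjusted p = 0.000959, against 0.0648 for Zfp423 and 0.0656 for Ebf1).

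The ratio of Zfp423 to its paralog Zfp521, which oppose each other in commitment, was computed in each library. It is descriptive, since both genes were tested above. At day 0 it was 0.0633, 0.0693 and 0.0637 in ctrl, 0.0868, 0.0608 and 0.0896 in Cre, 0.241, 0.183 and 0.175 in Cre + NFIA and 0.102, 0.119 and 0.159 in Cre + NFIA Δpro#3. At day 7 it was 2.29, 3.89 and 2.64 in ctrl, against 4.73, 4.5 and 4.43 in Cre + NFIA, so Zfp423 exceeded Zfp521 in each of these libraries. It was 0.639, 0.744 and 0.517 in Cre, and in Cre + NFIA Δpro#3 it was 0.352, 0.428 and 0.385, where Zfp521 remained the more abundant of the pair. No group overlapped another at day 7.

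**Figure D4:**
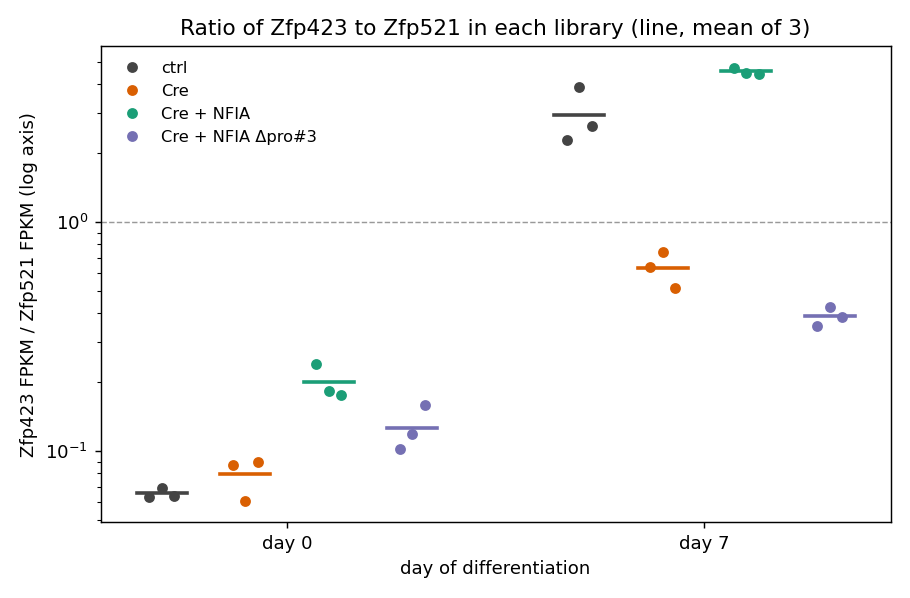
Ratio of Zfp423 to Zfp521 FPKM (vertical log axis) in each library, by cell type and day, with group means as lines and a dashed line at a ratio of 1. At day 7 ctrl (2.29 to 3.89) and Cre + NFIA (4.43 to 4.73) lay above 1, and Cre (0.517 to 0.744) and Cre + NFIA Δpro#3 (0.352 to 0.428) below it.

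Over the 8 group means the 10 genes fell into patterns, given here as Pearson's r of log2(FPKM + 1) between genes with no test, since the 8 points share day and cell type. Zfp521 and Gata2 were nearly parallel (r = 0.99). Zfp423, Zfp467 and Ebf2 formed another set (Zfp423 with Ebf2 0.95, Zfp467 with Ebf2 0.90, Zfp423 with Zfp467 0.83), opposite to Zfp521 and Gata2 (r from -0.66 to -0.82). Egr2 went with Ebf1 (0.82) and against Ebf3 (-0.82), but these genes did not stand apart from the Zfp423 set. Ebf1 was closer to Ebf2 (0.85) than to Egr2, and Ebf3 was more opposed to Zfp423 (-0.87) and Ebf2 (-0.86). Tle3 went against Gata3 (-0.83).

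Among all genes tested, those most like each of the 10 over the 24 libraries were named by the highest Pearson's r of log2(FPKM + 1), again as a description over libraries that share day and cell type. Zfp423 was most like Plin4 (0.996), Plin2 (0.994) and Spry4 (0.993), of which the first 2 encode lipid droplet coat proteins, and its r with Pparg was 0.976. Ebf2 was most like Klhl7 (0.972), Lpl (0.966), which encodes lipoprotein lipase, and Slc5a3 (0.965). For Zfp521 these genes were Apbb2 (0.986), Lox (0.986), which encodes the collagen cross-linking enzyme lysyl oxidase, and Lpar1 (0.984). For Gata2 they were P3h3 (0.989), Igf1r (0.987), the insulin-like growth factor receptor gene, and Galnt10 (0.986). Egr2 was most like Net1 (0.945), Tril (0.943) and Nkd1 (0.936), and Ebf3 like Helb (0.930), Cd47 (0.930) and Mier3 (0.926). Ebf1 was closest to Dennd4a (0.921), Cblb (0.914) and Deptor (0.889). The low genes had Aldh4a1 (0.915), Epb41l2 (0.910) and Nfib (0.910) for Zfp467, and Syne3 (0.903), Spred2 (0.893) and Pla1a (0.890) for Gata3. Tle3 had the weakest likeness, with Rxrb (0.759), Plekhj1 (0.752) and Jmjd4 (0.744). The r with Pparg was -0.860 for Gata2, -0.802 for Zfp521 and -0.117 for Tle3.

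Relatives of the 10 genes were mostly higher in Cre than in ctrl at day 7 and lower in Cre + NFIA than in Cre. This list and those that follow were chosen with earlier results of these data known. Their counts and medians are therefore descriptive. Of 14 symbols listed (further EBF, TLE, GATA and EGR genes, with Aes also under its other symbol Tle5), 9 were tested. In Cre against ctrl 7 were higher and 1 was lower, with a median log2 difference of 0.62 against 0.09 over all genes. The shares of all genes called were 36.1% higher and 22.7% lower. When Cre + NFIA was set against Cre, 1 was higher and 8 were lower (median -0.89 against -0.06, with 27.0% of all genes higher and 35.9% lower), and in Cre + NFIA Δpro#3 against Cre none was higher and 1 was lower (median -0.02 against 0.02, with 17.7% of all genes called). Tle2, a Groucho corepressor, was 17.9 ± 2.26 FPKM (SD, n = 3) in ctrl, 41.0 ± 1.12 in Cre, 9.47 ± 0.546 in Cre + NFIA and 40.7 ± 0.516 in Cre + NFIA Δpro#3 at day 7. Egr1, an immediate early factor, was 16.9 ± 1.02, 23.8 ± 0.338, 12.4 ± 0.222 and 24.4 ± 1.64 FPKM in that order. Tle6 was 4.24 ± 0.749, 6.99 ± 0.597, 2.85 ± 0.357 and 9.03 ± 0.898 FPKM. Aes, a short TLE-family gene and the most abundant of the list, was 238 ± 17.5, 249 ± 14.4, 214 ± 6.41 and 245 ± 17.4 FPKM.

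Partners and co-regulators (FOG, NAB, SMAD and BMP receptor genes, Hdac3 and Ehmt1) gave 12 tested genes of 13, with 8 higher and 1 lower in Cre than in ctrl at day 7 (median 0.34 against 0.09 over all genes), 1 higher and 7 lower in Cre + NFIA than in Cre (-0.31 against -0.06), and 3 higher and none lower in Cre + NFIA Δpro#3 than in Cre (0.19 against 0.02). Of all genes 58.8%, 63.0% and 17.7% were called in these 3 comparisons. Nab2, which encodes a corepressor that binds EGR proteins, was 39.3 ± 3.41 FPKM in ctrl, 78.6 ± 5.67 in Cre, 23.6 ± 1.44 in Cre + NFIA and 91.4 ± 7.38 in Cre + NFIA Δpro#3, so its order over the groups was like that of Zfp521. Hdac3 was 40.4 ± 2.71, 43.7 ± 0.253, 46.2 ± 1.45 and 44.6 ± 0.573 FPKM. Neither Hdac3 nor the BMP receptor gene Bmpr1a was called in any of these 3 comparisons.

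Of 16 adipogenic factors and effectors 15 were tested, with 10 lower and 3 higher in Cre than in ctrl at day 7 (median -1.20 against 0.09 over all genes), 12 higher and 2 lower in Cre + NFIA than in Cre (1.19 against -0.06), and none higher and 9 lower in Cre + NFIA Δpro#3 than in Cre (-1.05 against 0.02), where 58.8%, 63.0% and 17.7% of all genes were called. The adipogenic list holds Pparg and the adipocyte markers Adipoq, Plin1, Fabp4 and Cd36 already given above, so it is not a separate result for them. Of 12 osteoblast genes, on the fate that Zfp521 and Ebf2 are also studied for, 7 were tested. In Cre against ctrl 4 were higher and 1 lower (0.52), in Cre + NFIA against Cre none was higher and 6 were lower (-0.73), and in Cre + NFIA Δpro#3 against Cre 4 were higher and none lower (0.36), beside the same 58.8%, 63.0% and 17.7% of all genes called. Spp1, which encodes osteopontin, was 13 ± 1.49 FPKM in ctrl, 22.5 ± 5.29 in Cre, 8.89 ± 0.741 in Cre + NFIA and 33.0 ± 3.28 in Cre + NFIA Δpro#3. Bglap2 was 12.2 ± 0.599, 21.6 ± 2.14, 12.7 ± 1.75 and 58.0 ± 3.82 FPKM, but it has a close copy, Bglap, between which uniquely aligned reads are split, so its level is uncertain. Of the osteoblast transcription factor genes listed, Sp7 did not pass the filter but Runx2 did. Runx2 was 2.24 ± 0.0976 FPKM in ctrl, 4.76 ± 0.714 in Cre, 2.18 ± 0.237 in Cre + NFIA and 6.34 ± 0.492 in Cre + NFIA Δpro#3 at day 7.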

How the data were processed

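RNA was sequenced from stranded mRNA libraries of 24 samples. The authors aligned reads to mm9 with STAR 2.5.3a, kept uniquely aligned reads, counted those on the matching strand per gene, and deposited FPKM values. Because reads that align to several genes were dropped, values of close copies are uncertain, whereas strand-matched counting keeps antisense genes apart. When multiplied by gene length, the values of a library added up to 1000000 per kilobase, and 100% were whole multiples of 1 read (tolerance 0.05 read), so reads and totals (7.73 to 14.62 M) were recovered. Intervals cover the spread between libraries, and 3 reads were taken as the floor of detection, for counting error only.

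Values were transformed to log2(FPKM + 1). The 12640 genes that reached 1 FPKM in 3 or more libraries were tested two-sided by limma (3.58.1, under R 4.3.3) with its trend option, with Benjamini-Hochberg adjustment over all of them. Comparisons within a day used its 12 libraries, and those between days and interactions all 24. Groups came from the sample labels. Because the unit was FPKM, a count test was not the main test. Limma voom was run on the recovered reads (at least 10 reads in at least 3 libraries). Alternatives were pseudocounts of 0.1 and 5, no filter, median-of-ratios and quantile scaling, other libraries in the model, a replicate block and each library left out. Tests were tested on simulated data. The 10 genes and the lists were chosen with earlier results of these data known. The text names the 10 genes, the 3 genes most correlated with each, at most the 4 most abundant genes of each list, Nfia and Pparg. Sp7, Runx2, Bglap2's status as a copy and the cell type markers were named after their values were seen. Replicate numbers recur in each group. In 0 of 28 pairs of groups did all same-numbered libraries deviate together with r over 0.1, so they were not treated as pairs. A chi-square between replicate libraries was 2.17 to 15.1 per degree of freedom, above sampling noise, so none repeated another. Gene positions are from GENCODE on NCBIM37, the assembly named mm9, and promoter windows from RefSeq on GRCm38.p6.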

Additional observations from a re-analysis of the deposited data

Results flagged for a closer look

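A difference between cell types was itself different at day 7 and day 0 (an interaction term in limma over all 24 libraries, adjusted p under 0.05) for the following values, each the day 7 minus the day 0 difference in log2(FPKM + 1). For Cre against ctrl these were Zfp521 at 1.22 (adjusted p = 8.06e-07), Gata2 at 0.87 (0.000289), Egr2 at 0.64 (0.00214), Gata3 at 0.56 (0.0112), Zfp423 at -0.83 (3.55e-05), Ebf2 at -0.35 (0.038) and Tle3 at -0.27 (0.0206). The Ebf2 value lost its call without any of 8 of the 12 libraries, ctrl replicates 1 and 3 and Cre replicates 1 and 2 of day 0 and ctrl replicates 2 and 3 and Cre replicates 1 and 2 of day 7 (adjusted p 0.0575 to 0.105), and the Tle3 value without ctrl replicate 2 or Cre replicate 3 of day 0 or Cre replicate 3 of day 7 (0.0648 to 0.0683). With only the compared groups in the model both lost their call (0.0542 and 0.0672), and Ebf2 also without the filter (0.059).

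For Cre + NFIA against Cre they were Egr2 at -1.23 (adjusted p = 1.9e-06), Zfp521 at -1.15 (1.09e-06), Gata2 at -0.99 (6.61e-05), Gata3 at -0.82 (0.000577), Zfp467 at 0.72 (0.0039), Ebf2 at 0.50 (0.0042) and Tle3 at 0.36 (0.00265). For Cre + NFIA Δpro#3 against Cre they were Zfp521 at 0.61 (adjusted p = 0.00446), Zfp423 at -0.57 (0.005) and Ebf1 at 0.21 (0.0499). The Ebf1 value lost its call without any of 9 of the 12 libraries, all but Cre replicate 2 of day 0, Cre replicate 3 of day 7 and Cre + NFIA Δpro#3 replicate 1 of day 7 (adjusted p 0.064 to 0.143), and also with a pseudocount of 5 (0.0604) and with only the compared groups in the model (0.098). Groups had 3 libraries, so no single library was tested as an outlier.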

How the results depend on the processing

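The 105 called values of the 10 genes were recomputed under 8 other settings and without each library, 1572 values in all, of which 1462 stayed past the threshold, 110 did not and 0 changed sign. Calls held under every alternative for 82 of the 105. Leaving out 1 library lost 83 values, of 22 results for Ebf1, Ebf2, Ebf3, Tle3, Gata2, Gata3, Egr2, Zfp423 and Zfp521, given above with their libraries. The number of the 10 genes called for Cre + NFIA Δpro#3 against Cre at day 7 was 2. It became 4 with limma voom on the recovered reads, 3 with a pseudocount of 0.1 or quantile normalization, and ranged from 1 to 2 without 1 library. For the interaction of day with that comparison it was 3, became 1 with limma voom, and ranged from 2 to 3 without 1 library. The causes were not tested. Of all genes tested, 421 were called for Cre against ctrl at day 0 and 636 with all 24 libraries in the model. Quantile normalization moved the share of higher calls from 58.1% to 43.2% between the days in Cre, from 59.1% to 48.0% in Cre + NFIA Δpro#3, from 48.9% to 37.4% for Cre against ctrl at day 0, and from 42.9% to 53.4% for the interaction of Cre + NFIA Δpro#3 against Cre. Median-of-ratios scaling moved it from 60.3% to 46.3% for the interaction in the Cre and ctrl comparison, from 38.5% to 52.0% for that of full-length NFIA in Cre cells, and from 48.9% to 38.8% for Cre against ctrl at day 0. With the replicate number as a block, the counts at day 7 were 8 for the Cre and ctrl comparison, 8 for full-length NFIA in Cre cells and 2 for Δpro#3 in Cre cells, as without it. The block left 6 in place of 7 interactions for the Cre and ctrl comparison (Ebf2, adjusted p = 0.05) and 2 in place of 3 for Δpro#3 (Ebf1, 0.0669), and it changed no other call. Same-numbered libraries had mean correlations of -0.159 to 0.113 between groups, so no pairing by number was seen. With 3 libraries per group this check cannot exclude pairing. Counts for the gene lists moved by more than 1.5 times only for Cre + NFIA Δpro#3 against Cre, from 1 to between 0 and 3 for relatives, from 3 to between 0 and 4 for partners, and from 4 to between 2 and 4 for osteoblast genes. Zfp467 and Gata3, with 9 to 105 and 11 to 61 reads per library, are limited by depth.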
